A study of Caenorhabditis elegans with 2 samples.

Results

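The 274 regions described here are intronic binding peaks of the zinc finger protein LIR-3 in first-stage (L1) larvae of Caenorhabditis elegans. They were taken from the 1910 peaks of the set that passed the authors' test of reproducibility between replicates (the irreproducible discovery rate, IDR), of which 1894 lie on the 6 nuclear chromosomes. A peak was a member when its summit lay inside the annotated body of a protein-coding gene, in no exon of any gene, and more than 500 bp from the annotated 5' end of every protein-coding gene. Chromatin immunoprecipitation followed by sequencing (ChIP-seq) had been run on 2 biological replicates of whole hermaphrodite larvae of the transgenic strain OP312, genotype unc-119(ed3) III; wgIs312. The transgene gives a stable line that makes LIR-3 with GFP and FLAG at its C-terminus, and the tagged protein was precipitated with an antibody against GFP. The larvae had been starved after bleaching to synchronise them and were collected 6 h later. Both replicates belong to this single group, no untagged strain and no input library was analysed here, and the labels do not name the promoter or the cells that express the transgene. Read depth is also unknown, so every value below is a position or the authors' own score per peak, and no test between conditions was possible. Because whole larvae were used, binding in few cells and weak binding in many cells cannot be told apart.

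LIR-3 belongs to a small nematode family named after LIN-26, a zinc finger protein needed for the fate of epidermal and other epithelial cells. Introns of worm genes can hold several kinds of sequence that a chromatin-bound protein may meet: enhancers, start sites of shorter transcripts of the host gene, and complete RNA genes nested in the host. Nested RNA genes include tRNA genes, which RNA polymerase III transcribes from internal promoter elements called the A box and the B box, and snoRNA genes, whose products guide chemical modification of ribosomal RNA.

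The first set of sequences is shown because it carries the strongest intronic peaks. Each line gives 101 bases centred on a summit, on the plus strand of the WBcel235 (ce11) assembly from RefSeq, with exact matches of GAGGAGTAC and TGGCCTAG on either strand in capitals. The first pair comes from chrIV:16415242-16415342 and chrIV:16415742-16415842, the next from chrV:11029446-11029546, chrIV:15526624-15526724, chrV:13409225-13409325 and chrIV:6369650-6369750. F53F1.3 and smg-3 were added after their values had been seen.
Y65A5A.2, upstream summit: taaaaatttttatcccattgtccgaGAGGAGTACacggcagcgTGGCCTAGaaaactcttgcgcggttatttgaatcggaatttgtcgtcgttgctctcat
Y65A5A.2, downstream summit: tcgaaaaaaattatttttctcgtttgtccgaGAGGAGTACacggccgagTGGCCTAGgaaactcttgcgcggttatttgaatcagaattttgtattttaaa
pptr-2: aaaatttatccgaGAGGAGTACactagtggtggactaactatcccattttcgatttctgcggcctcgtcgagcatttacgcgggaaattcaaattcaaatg
ari-1.4: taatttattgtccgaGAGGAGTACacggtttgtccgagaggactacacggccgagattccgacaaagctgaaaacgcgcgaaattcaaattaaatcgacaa
F53F1.3: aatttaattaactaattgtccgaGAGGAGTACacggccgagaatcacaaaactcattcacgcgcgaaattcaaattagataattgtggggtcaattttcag
smg-3: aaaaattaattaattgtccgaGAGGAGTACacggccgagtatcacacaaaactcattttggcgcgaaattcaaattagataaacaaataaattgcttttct

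The second set is shown because CTGCGTC, runs of GAGAGA and the E-box CACGTG were frequent around intronic summits. Capitals mark exact matches of these 3 motifs on either strand, so that TCTCTC marks GAGAGA on the minus strand. The windows are chrIV:2602133-2602233, chrIII:12612624-12612724, chrIII:1925130-1925230, chrIII:8802128-8802228 and chrIII:13187896-13187996.
epg-9: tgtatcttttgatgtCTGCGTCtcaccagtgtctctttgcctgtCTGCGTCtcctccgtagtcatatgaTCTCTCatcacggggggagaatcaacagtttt
Y111B2A.12: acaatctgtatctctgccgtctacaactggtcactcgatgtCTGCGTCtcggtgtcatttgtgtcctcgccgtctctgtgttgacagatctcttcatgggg
pqn-41: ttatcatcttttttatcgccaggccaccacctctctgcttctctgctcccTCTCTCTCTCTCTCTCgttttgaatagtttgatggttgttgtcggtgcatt
zfp-1: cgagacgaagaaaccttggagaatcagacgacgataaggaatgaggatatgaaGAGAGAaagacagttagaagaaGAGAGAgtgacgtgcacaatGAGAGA
gly-5: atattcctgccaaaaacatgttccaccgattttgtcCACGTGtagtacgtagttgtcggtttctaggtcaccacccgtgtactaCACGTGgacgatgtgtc

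The last pair is shown because tRNA genes lay at many intronic summits. Capitals mark GTTCGANTC, the core of the B box, on either strand. In chrX:9743638-9743738 the match lies in the tRNA-Ala gene F15G9.t1, and in chrX:8944263-8944363 in the tRNA-Trp gene sup-28, on the minus strand.
him-4: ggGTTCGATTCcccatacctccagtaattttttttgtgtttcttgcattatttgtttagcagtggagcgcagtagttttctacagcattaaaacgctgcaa
trk-1: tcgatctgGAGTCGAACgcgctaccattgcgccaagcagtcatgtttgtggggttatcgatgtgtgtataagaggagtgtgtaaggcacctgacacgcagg

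The strongest intronic peaks were a pair 500 bp apart in Y65A5A.2, which encodes a predicted glycoprotein. The upstream summit scored 1291.1 in the pooled data, 694.8 in replicate 1 and 624.7 in replicate 2. The downstream summit scored 1211.0 in the pooled data, 645.6 in replicate 1 and 583.9 in replicate 2. Both replicates therefore placed this pair among their 35 strongest nuclear regions, and the upstream peak stood 24th among the nuclear IDR peaks. The next member lay in gly-5, which encodes a polypeptide N-acetylgalactosaminyltransferase of mucin-type glycosylation, in the first intron of at least 1 annotated transcript. This member scored 747.4 in the pooled data, 415.8 in replicate 1 and 329.0 in replicate 2. The member in epg-9, the worm homolog of the autophagy protein ATG101, scored 724.5 in the pooled data, 333.1 in replicate 1 and 424.6 in replicate 2. In these members the replicates differed by less than 1.5 times in either direction.

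Among the next members were pbrm-1, which encodes a polybromo subunit of a chromatin remodelling complex, with a pooled score of 686.3, and pptr-2, a regulatory subunit of protein phosphatase 2A, with 685.9. The uncharacterized gene Y41G9A.17 followed with 662.7. The member in him-4, which encodes the extracellular matrix protein hemicentin, scored 628.8, and that in mom-1, the worm Porcupine acyltransferase that prepares Wnt ligands for secretion, scored 608.5. Y111B2A.12, with WD repeats, reached 595.7, and ari-1.4, an E3 ubiquitin ligase of the RBR type, reached 589.9. The cohesin loader gene scc-2 followed with 579.9, the dynein heavy chain gene dhc-4 with 574.1 and hmt-1, a heavy metal tolerance factor, with 553.2. The remaining hosts among the 20 strongest members were nhr-19 (521.5), pqn-41 (501.6), W05H12.1 (490.5), ppfr-1 (482.5), zfp-1 (469.0) and ZK470.2 (462.3). These 20 peaks spanned glycosylation, signalling, chromatin and cytoskeletal genes as well as uncharacterized ones, and pooled scores fell smoothly after the pair in Y65A5A.2.

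Intronic distal peaks were on the whole weaker than peaks near 5' ends. The median pooled score of the 274 members was 138.6, with a range from 89.9 to 1291.1, and the median of the other 1620 nuclear IDR peaks was 161.0. The 952 peaks within 500 bp of a protein-coding 5' end had a median of 185.2, the 181 exonic peaks farther away 132.5, and the 487 intergenic peaks farther away 141.7. The 3 classes away from 5' ends thus had similar medians, and all 4 classes overlapped over most of their range. The score has no unit in the deposited files, and peaks are not replicates, so the medians carry no test.

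**Figure D1:**
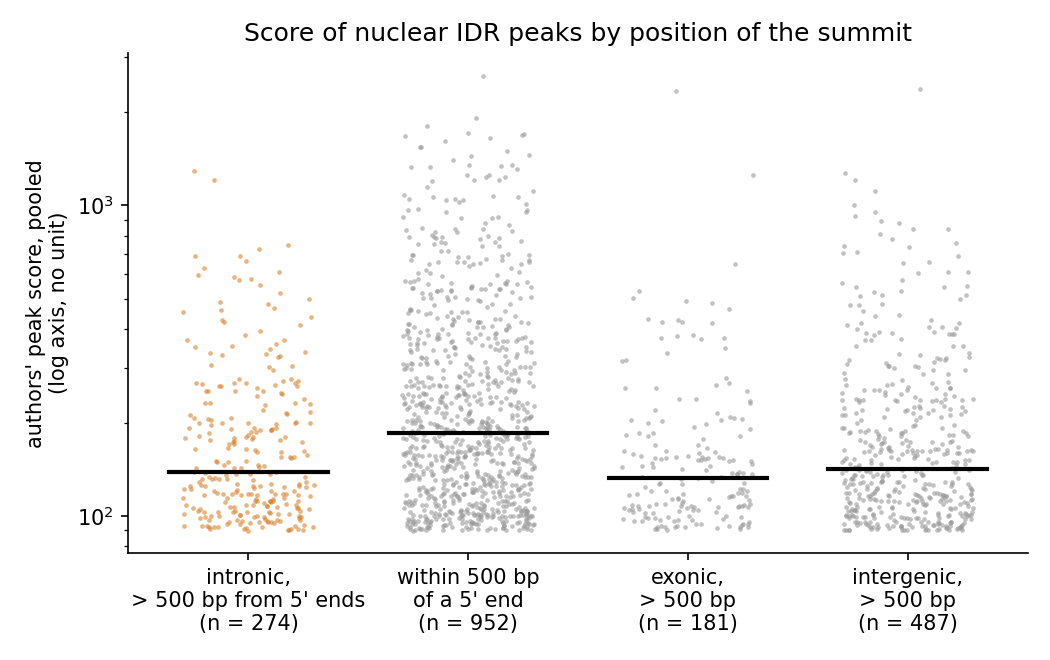
Authors' pooled score (log axis) of each nuclear IDR peak by the position of its summit, 1 point per peak, with a black line at the median. The 274 intronic distal peaks (orange) have a median of 138.6 and the 952 peaks within 500 bp of a 5' end a median of 185.2, with wide overlap.

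The share of intronic distal peaks was lowest among the strongest peaks. They made up 51 of the 473 strongest nuclear IDR peaks, which is 10.8% (exact 95% interval 8.13 to 13.9%), and 83 of the 474 weakest, which is 17.5% (14.2 to 21.2%). The ranks in between lay between these values, at 14.6% and 15%. Over all nuclear IDR peaks the share was 14.5%. In the pooled list of regions that did not enter the IDR set, the share was 21.7 to 23% in every range of ranks. Sequence that meets the same positional rule, called eligible intron sequence below, covers 28429647 bases or 28.4% of the nuclear genome, so every list held a smaller share of such regions than the genome does. Members occurred at 9.64 per Mb of eligible intron sequence, and other peaks at 22.5 per Mb of the remaining sequence. The intervals cover counting error only.

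**Figure D2:**
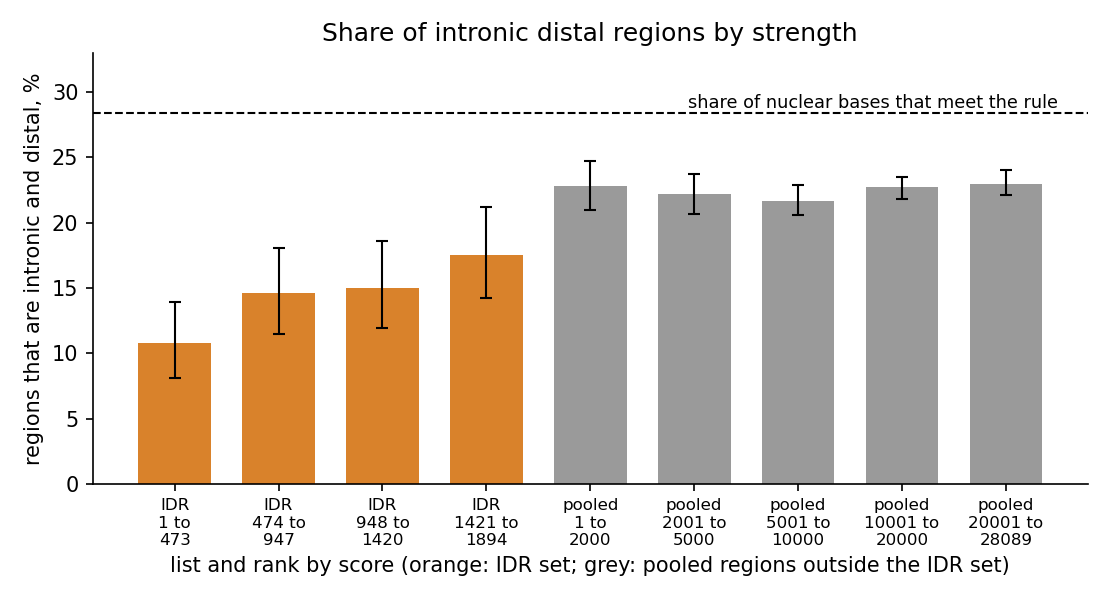
Share of regions that are intronic and more than 500 bp from protein-coding 5' ends (y axis, percent, with exact 95% intervals) by rank of the authors' score, in the IDR set (orange) and in pooled regions outside it (grey). The share goes from 10.8% in the strongest IDR ranks to 17.5% in the weakest and is 21.7 to 23% in the grey bars, and the dashed line marks the 28.4% of nuclear bases that meet the rule.

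Most members were found in each replicate, which the choice of peaks by reproducibility between replicates itself favours. For 252 of the 274 members (92.0%), the summit lay inside a region of both replicates' own lists of 30000 regions, against 95.4% of all nuclear IDR peaks. A region was missing in replicate 1 for 11 members and in replicate 2 for 11 others, and no member lacked both. Peaks that lay inside one of the 1894 strongest nuclear regions of each replicate were fewer, 172 members or 62.8%, against 68.6% of all nuclear IDR peaks. Both shares were a little below this background. Among the 22 members with a region in 1 replicate only, the strongest pooled score was 452.6, at the snoRNA gene ZK994.7 in pxn-1, where replicate 1 scored 188.1 and no region of replicate 2 held the summit. Over the 252 members in both lists, scores of the replicates had a Spearman rank correlation of 0.70, beside 0.78 over 1555 other peaks, as a description across peaks of the same 2 libraries. The median score was 68.5 in replicate 1 and 83.1 in replicate 2.

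**Figure D3:**
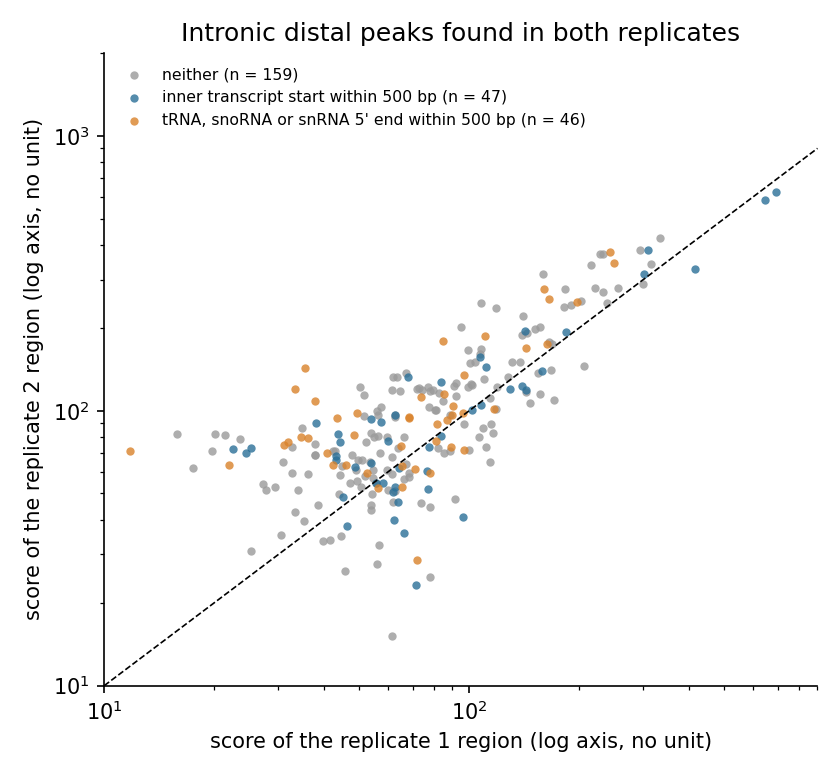
Score of the replicate 2 region (y, log axis) against that of the replicate 1 region (x, log axis) for the 252 intronic distal peaks found in both lists, coloured by what lies within 500 bp of the summit, with a dashed line of equal scores. The pair in Y65A5A.2 stands at the upper right, and weak members scatter widely, with the 3 colours intermingled.

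Members were spread over 225 host genes, and 38 hosts held more than 1. Of these, 29 held 2 members, 7 held 3 and 2 held 4, and together they accounted for 87 members. The polyglutamine-repeat gene pqn-41 held 4 members in the same intron of 7776 bp, which is first in at least 1 annotated transcript but not next to the gene's outermost 5' end. Their pooled scores were 248.8, 182.0, 501.6 and 268.8 along the chromosome. Its strongest pair lay 200 bp apart and shared 1 region of replicate 2, which scored 246.5, while replicate 1 gave the pair separate regions of 238.6 and 107.7. The cGMP-dependent protein kinase gene pkg-2 also held 4 members, all weak, with pooled scores from 92.8 to 153.7. Thus hosts with equal numbers of members differed widely in the strength of binding.

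The hosts with 3 members included several regulators of transcription. In nhr-19, a nuclear hormone receptor gene, the first intron of at least 1 annotated transcript held members that scored 199.3, 178.7 and 521.5. In zfp-1, which encodes a PHD finger chromatin protein homologous to human AF10, members scored 469.0, 196.9 and 346.2, and the last of these had no region in replicate 2. In sma-9, a zinc finger regulator of body size in the BMP pathway, they scored 136.0, 206.8 and 138.5. In the forkhead gene fkh-7 they scored 143.1, 97.2 and 117.9, in ell-1, an ELL family elongation factor, 102.9, 111.7 and 137.0, in D2023.1 90.3, 106.7 and 137.5, and in W05H12.1 490.5, 122.9 and 155.3. The strongest member of nhr-19 and that of W05H12.1 each scored more than 2 times the next in the same host.

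The 29 hosts of 2 members were Y65A5A.2, pbrm-1, Y111B2A.12, ppfr-1, ZK470.2, ldb-1, unk-1, mnk-1, srh-2, spsb-1, daf-5, brc-1, gei-4, F53C11.5, Y48C3A.5, daf-16, Y43F8B.2, kin-20, scd-1, T26A8.4, abts-4, R02F2.1, ncl-1, hlh-30, nhr-34, H28G03.2, R03G5.6, aakg-4 and ckk-1. They include daf-16, the FOXO factor of the insulin pathway, with scores of 101.3 and 215.5, and hlh-30, the worm TFEB that controls autophagy and lysosome genes, with 118.3 and 89.9. In the pair of pbrm-1, 199 bp apart, scores were 686.3 and 206.5. In ldb-1, whose LIM-binding product partners LIM homeodomain factors, they were 422.1 and 93.8. Scores in these last hosts differed by more than 3 times, unlike the nearly equal pair in Y65A5A.2. In all, 9 pairs of neighbouring members lay within 1000 bp of each other in the same host.

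A peak at the host's own 5' end was more frequent than among genes at large. Of the 225 hosts, 28 or 12.4% (exact 95% interval 8.43 to 17.5%) had a nuclear IDR summit within 500 bp of their annotated 5' end, against 5.92% of the 16937 protein-coding genes with eligible intron sequence. W05H12.1 and T26A8.4 were among the 28. The other 197 hosts had intronic peaks without a peak at their 5' end in this set.

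The lists of host genes by function were short apart from 2. Transcription factor genes were hosts of 26 members in 17 genes, 9.49% of members (exact 95% interval 6.29 to 13.6%), while such genes hold 3.60% of eligible intron sequence. Their strongest members lay in nhr-19 (521.5), in nhr-17 (229.7), at a tRNA gene, in daf-16 (215.5) and in sma-9 (206.8). Signalling genes were hosts of 10 members in 10 genes, 3.65% (1.76 to 6.61%), against 1.33% of eligible sequence. Their strongest members lay in let-363, the worm TOR kinase (335.5), in the SMAD gene daf-14 (267.4), in the RAF kinase gene lin-45 (238.0) and in aak-2, a catalytic subunit of AMP-activated kinase (230.8). Each of these 4 members had a region in both replicates.

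The other lists held few or no members. Neuronal genes held 4 members, in unc-41 (160.9), ida-1 (117.2), unc-73 (105.6) and unc-119 (100.1), which is 1.46% of members against 1.00% of eligible sequence. Adhesion and guidance genes held 3, in him-4 (628.8), mig-10 (107.3) and sax-7 (100.1), or 1.09% against 1.41%. Ion channel and receptor genes held 2, in acr-18 (111.7) and deg-1 (106.1), or 0.730% (0.0885 to 2.61%) against 3.67% of eligible sequence, and both lay next to tRNA genes. Muscle genes held 1, in the calcium pump gene sca-1 (92.4), or 0.365% of members against 0.649% of eligible sequence. Chromatin genes held 1, in set-18 (124.0), or 0.365% against 0.554%. Ribosome and translation genes held 1, in eif-2Bdelta (133.6), or 0.365% (0.00924 to 2.02%) against 0.0886%. RNA processing genes held 0 of 274 members, which allows a share of up to 1.34%, against 0.599% of eligible sequence. Of these 9 lists, transcription factors and signalling were the only ones whose interval lay above their share of sequence, and ion channels and receptors the only one whose interval lay below it. These intervals count members as separate although some share a host, such as the 3 each in nhr-19, sma-9 and fkh-7. The interval of transcription factors may therefore be too narrow. No member lay in lin-26, lir-1, lir-2 or lir-3. The member in unc-119 is a weak one, and whether the strain's unc-119(ed3) allele or its transgene bears on it was not tested.

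Members were spread over all nuclear chromosomes. The X chromosome held 60 members, 21.9% (exact 95% interval 17.1 to 27.3%), beside 16.5% of eligible sequence and 18% of all nuclear IDR peaks. Chromosome V held 33, 12% (8.44 to 16.5%), beside 17.5% of eligible sequence and 14.7% of all nuclear IDR peaks. On both chromosomes the share of all peaks lay inside the members' interval, while that of eligible sequence lay outside it. The other chromosomes held 38 to 50 members each, at 8.70 to 10.3 per eligible Mb. On the autosomes, 107 of 214 members lay in the central of 3 equal parts of their chromosome, 50% (43.1 to 56.9%), while that part holds 26.9% of the eligible sequence there. How many other nuclear IDR peaks lie in these central parts was not counted, so this share cannot be called particular to members. Members thus occurred at 16.8 per eligible Mb in autosome centres and at 12.8 on X, against 9.64 over all eligible sequence.

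Long introns and first introns held more members than their length alone would give. Introns over 5000 bp held 70 members, 25.5% (exact 95% interval 20.5 to 31.1%) against 13.3% of eligible bases, and introns of 2001 to 5000 bp held 67, 24.5% (19.5 to 30%) against 16.5%. Introns up to 500 bp held 46, 16.8% (12.6 to 21.8%) against 26.7%. First introns of at least 1 annotated transcript held 136 members, 49.6% (43.6 to 55.7%) against 28.1% of eligible bases. Counted on the longest transcript alone, first introns held 83 members, 30.3% (24.9 to 36.1%) against 18.5%. Both ways of counting gave members a larger share in first introns than eligible sequence has.

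The first-intron share of any transcript was also given by intron length. Length is that of the shortest annotated intron at a position, and the intron that is first there may be another, longer one. In introns of up to 500 bp, 9 of 46 members lay in a first intron, 19.6% (exact 95% interval 9.36 to 33.9%) against 9.46% of eligible bases of that length, which that interval holds. In introns over 500 and up to 1000 bp it was 18 of 53, 34% (21.5 to 48.3%) against 21%. In introns of 1001 to 2000 bp, 23 of 38 members lay in a first intron, 60.5% (43.4 to 76%) against 27.6% of eligible bases of that length. In introns of 2001 to 5000 bp it was 44 of 67, 65.7% (53.1 to 76.8%) against 42.9%. In introns over 5000 bp, however, it was 42 of 70, 60% (47.6 to 71.5%), close to the 60.2% of eligible bases. The members' share was thus above that of the sequence in every length class up to 5000 bp, and in the shortest class the interval holds the sequence share.

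**Figure D4:**
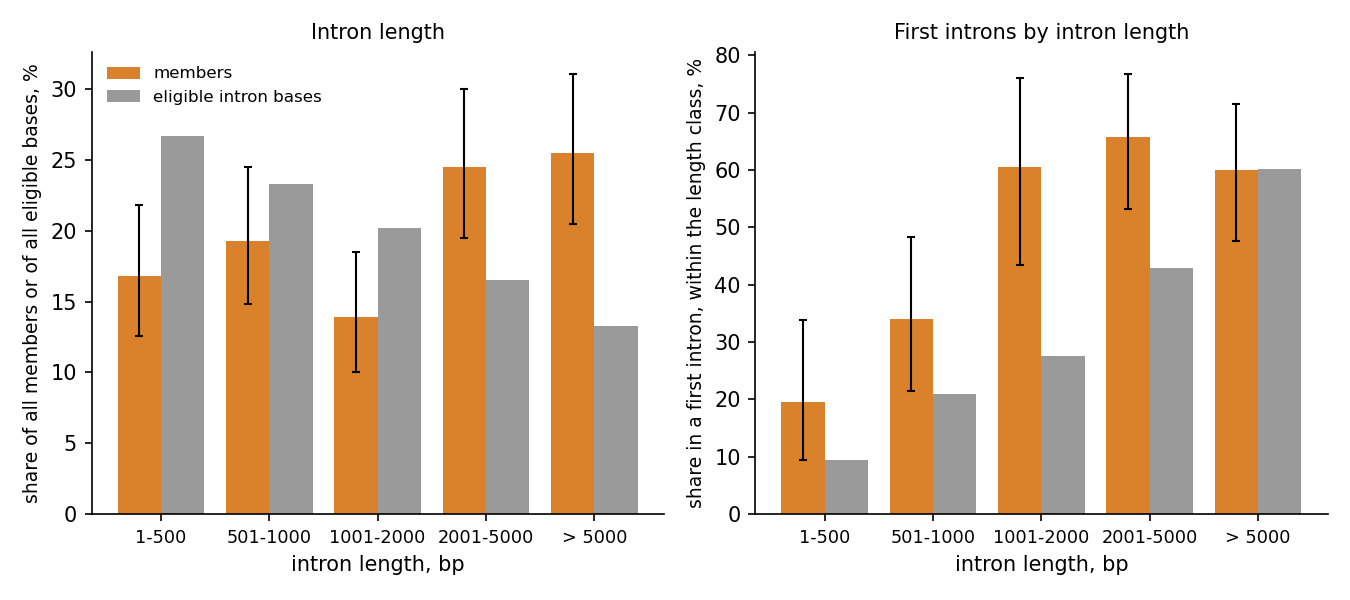
Left, share of members (orange, with exact 95% intervals) and of eligible intron bases (grey) by intron length. Right, share lying in a first intron of any transcript, by length of the shortest annotated intron at that position. Members exceed the sequence share in introns over 2000 bp on the left, and on the right in each length class up to 5000 bp, with the interval for introns up to 500 bp holding the sequence share, while above 5000 bp the bars stand at 60% and 60.2%.

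Many members lay far from any protein-coding 5' end. Of the 274, 222 lay more than 1000 bp away, 67 or 24.5% more than 5000 bp and 13 more than 10000 bp. The farthest was in aakg-1, a gamma subunit of AMP-activated kinase, 25492 bp from the nearest 5' end, with a pooled score of 91.7, 39.8 in replicate 1 and 33.5 in replicate 2. The next were the pair in pqn-41 at 18457 and 18257 bp. They scored 501.6 and 268.8, so the farthest members were of unequal strength. Just inside the limit of 500 bp lay members in uba-5 at 504 bp (162.1), F21D12.3 at 509 bp (179.5) and F44E2.7 at 525 bp (143.4). Just outside it lay intronic peaks in Y56A3A.7 at 487 bp (1697.5), K08B5.1 at 479 bp (104.9) and mai-1 at 475 bp (138.5). In all, 51 intronic summits were left out for lying within the limit.

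A part of the set lay near starts of shorter annotated transcripts. The rule removed summits near the outermost 5' end of each gene but not near inner transcript starts, and 62 members, 22.6% (exact 95% interval 17.8 to 28.0%), lay within 500 bp of one, against 9.19% of eligible bases. Of these, 53 lay upstream of the inner start, and the median position of the 62 was -175 bp, with quartiles of -292 and -75.5 bp (negative values upstream). Eligible sequence within 500 bp of inner starts is itself 58.4% upstream, since the exon that follows a start is barred by the rule. Among the strongest members, the summit lay 156 bp upstream of an inner start in gly-5, 109 bp in pptr-2 and 160 bp in scc-2. In Y65A5A.2 the downstream summit lay 293 bp upstream of an inner start. The upstream summit there, the strongest member of all, lay 452 bp downstream of another. In lin-45 the summit lay 11 bp upstream. The 53 members with an inner start but no small RNA gene within 500 bp had a median score of 129.2, beside 147.9 for the 174 members with neither, so proximity to an inner start did not go with a higher score.

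Nested small RNA genes lay at 47 members, 17.2% (12.9 to 22.1%), counting tRNA, snoRNA, snRNA and rRNA genes with a 5' end within 500 bp of the summit. The background over all nuclear IDR peaks was 11.6%, and only 0.751% of eligible intron bases lie that close. This background was uneven: 38.7% (70 of 181) in exonic peaks away from protein-coding 5' ends, 10.9% in intergenic ones and 5.15% in peaks near 5' ends. Members were thus above the intergenic peaks and those near 5' ends, but below the exonic peaks. Exons of RNA genes count as exons, so the exonic peaks can include summits inside RNA genes. In 42 of the 47 members the distance was within 100 bp. The rule bars members from the RNA gene itself, so the 47 are only those beside it. Counting exons of protein-coding genes alone raised the share to 24.1% of 324 peaks. The median score of the 47 members was 146.3, near the 138.6 of all members, and 46 of the 47 had a region in both replicates. Sequence around these summits was often repeated in the genome: 28 of the 47 windows had at least 90% of their 31-base stretches only once in the genome, against 243 of all 274. Among those 243 members, a restriction chosen after seeing the data, 28 lay within 500 bp of a small RNA 5' end, 11.5% (7.79 to 16.2%), and among all 1709 nuclear IDR peaks restricted the same way the share was 6.73% (5.59 to 8.02%). The bearing of repeated sequence on the scores was not tested.

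tRNA genes were the most frequent. A tRNA 5' end lay within 500 bp of 28 members, and 27 of these summits were upstream of the gene. The 28 had a median position of -37.5 bp, with quartiles of -60 and -26.2 bp. Eligible sequence within 500 bp of such ends is 57.9% upstream. The rule bars the tRNA gene itself, so at distances as short as these it favours upstream summits, and the side was not tested. Of 249 tRNA genes with a 5' end inside a protein-coding gene body and more than 500 bp from protein-coding 5' ends, 31 or 12.4% (exact 95% interval 8.62 to 17.2%) had a member within 500 bp, and 60 had any IDR summit there. The strongest lay in him-4 between F15G9.t1 and F15G9.t2, both for tRNA-Ala, with 628.8 in the pooled data, 242.6 in replicate 1 and 379.0 in replicate 2. In that window 62.6% of 31-base stretches occur only once in the genome. The next lay 70 bp upstream of the tRNA-Asn gene F41D9.t3 in sulp-3 (395.0) and 63 bp upstream of the tRNA-Arg gene F47G6.t1 in spe-15 (383.8). The tRNA-Trp genes known as amber suppressor loci sup-5 in fli-1 (179.7), sup-7 in C03B1.2 (149.3) and sup-28 in trk-1 (98.5), were also at members and were named after their values had been seen. Strong and weak members thus both occurred at tRNA genes.

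snoRNA and snRNA genes had summits at a like distance. A snoRNA 5' end lay within 500 bp of 15 members, at a median position of -42 bp, and 13 of these summits were upstream. Eligible sequence within 500 bp of such ends is 60.1% upstream, but the rule bars the snoRNA gene itself and so favours upstream summits this close. The strongest were at ZK994.7 in pxn-1 (452.6), 65 bp upstream, at Y71F9AM.7 in cogc-3, a Golgi tethering subunit (429.4), 64 bp upstream, and at Y37E3.20 in pcyt-2.1 (324.3), 4 bp upstream. An snRNA 5' end lay within 500 bp of 5 members, with the strongest in dhc-4 (574.1), 27 bp upstream of WBGene00014543. That member scored 250 in replicate 1 and 344.6 in replicate 2, and 71.3% of the 31-base stretches in its window occur only once in the genome. The member in C33A12.3 lay near both a snoRNA gene (smy-2) and an snRNA gene (smy-1) and is counted in both classes. Of the 15 snoRNA genes, 14 lay on the strand of their host, and of the 31 tRNA genes 18 did.

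Other RNA genes were less close to the summits. miRNA genes lay within 500 bp of 6 members, at a median position of -288.5 bp, and none of the 88 miRNA genes nested under the same definition had a member within 100 bp. The strongest was in F09A5.3, 305 bp upstream of mir-54 and 475 bp upstream of mir-55 on the opposite strand, with 412.0 in the pooled data, 181.3 in replicate 1 and 239.1 in replicate 2. Genes annotated as ncRNA lay near 54 members, of which 23 were upstream of the ncRNA 5' end, and piRNA genes near 7. Some of these ncRNA genes overlap a tRNA or snoRNA gene at the same member on the other strand. Examples are F47G6.6 over the tRNA gene F47G6.t1 and F01D5.14 over the snoRNA gene F01D5.12. The ncRNA genes are thus not a class apart from the small RNA genes, and the share of eligible sequence near them is not given here. Of 3020 nested ncRNA genes 2.19% had a member, and of 5233 nested piRNA genes 0.287%. No member lay within 500 bp of any of the 14 nested lincRNA genes.

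**Figure D5:**
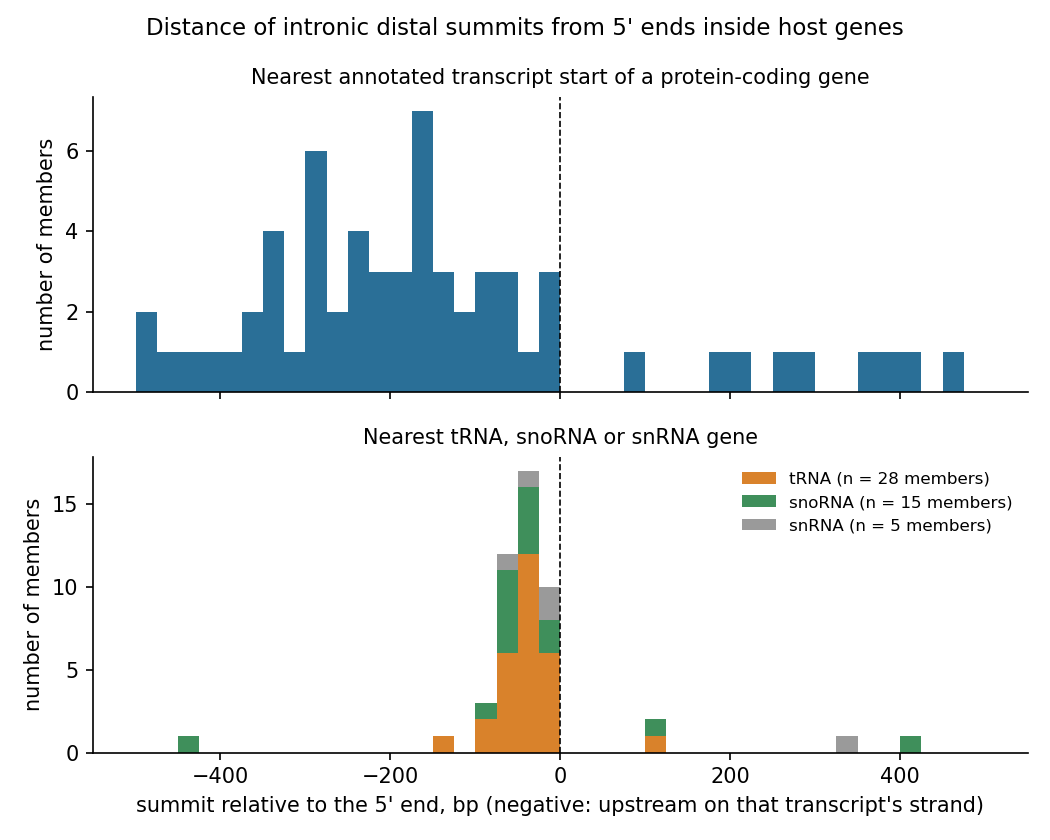
Position of intronic distal summits relative to the nearest annotated transcript start of a protein-coding gene (top) and to the nearest tRNA, snoRNA or snRNA 5' end (bottom), in bp, negative values upstream on the strand of that transcript. Bars count members per 25 bp. Of the 62 members at inner starts, 53 spread over the 500 bp upstream and the rest lie downstream, while most of those at small RNA genes lie within 100 bp upstream. Summits inside the RNA gene itself are barred by the rule.

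The sequence around intronic summits was richer in G and C than introns are. Over windows of 100 bp on each side, the median GC content was 43.3% in members, 41.3% in other nuclear IDR peaks and 33.3% in 28428 windows tiled over eligible introns. Members within 500 bp of a small RNA gene had a median of 49.3%, those with an inner start only 41.8% and those with neither 42.3%. The members were thus above eligible introns in each of these groups.

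Short motifs were counted in the same windows, on both strands. GAGAGA occurred in 148 members, 54%, in 38.3% of other nuclear IDR peaks and in 8.37% of eligible intron windows. CTGCGTC occurred in 44 members, 16.1%, in 14.3% of other peaks and in 1.57% of eligible windows. The E-box CACGTG occurred in 44 members, 16.1%, in 9.14% of other peaks and in 3.02% of eligible windows. TGTGTGTG occurred in 9.85% of members, 4.32% of other peaks and 1.23% of eligible windows, and GAGAGAGA, which contains GAGAGA, in 17.9%, 10.4% and 1.19%. These 5 were thus more frequent in members than in eligible introns. Among the other peaks, intergenic ones away from 5' ends held GAGAGA in 48.5%, its longer form in 17.2%, the E-box in 14.2% and TGTGTGTG in 6.16%, and those near 5' ends held them in 32.8%, 6.83%, 6.62% and 2.73%. For the first 3 of these motifs the value of the intergenic peaks lies inside the exact 95% interval of the members (47.9 to 60%, 13.5 to 22.9% and 11.9 to 21%).

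The run of T was less frequent in members than in eligible windows. A run of 8 T occurred in 9.85% of members, 11% of other peaks and 31.4% of eligible windows, and the GATA site TGATAA in 12.8%, 13.2% and 16.7%, where the exact 95% interval of the members, 9.06 to 17.3%, holds the value of eligible windows. GCGCGAA, an E2F-like sequence, occurred in 5.11%, 4.26% and 1.36%, CCCGCCC in 2.19%, 2.78% and 0.753%, and TGACTCA, the AP-1 site, in 1.09%, 2.53% and 1.66%. GTTCGANTC of the B box occurred in 4.38%, 2.53% and 0.447%, and in 11 of the 47 members near small RNA genes. TGGCNNAGT of the A box occurred in 4.38%, 5.12% and 2.18%. A match describes these letters in the window and does not show a bound site.

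Median scores of members with and without a motif lay furthest apart for GAGGAGTAC. The 7 members with GAGGAGTAC had a median pooled score of 589.9, and the other members a median of 136.8. This motif occurred in 2.55% of members, 3.46% of other peaks and 0.232% of eligible windows, and TGGCCTAG in 1.82%, 5.8% and 1.41%, so neither was more frequent in members than in other peaks. These 7 lay in Y65A5A.2, which held 2, pptr-2, ari-1.4, F53F1.3, let-363 and smg-3, and 6 of them were among the 68 strongest members. The motif was chosen after the strongest members had been read, so its higher median is a description of that choice. With CTGCGTC the median was 161.9 against 136.5 without, with the E-box 139.6 against 138.6, and with GAGAGA 136.8 against 154.5. The 14 members with the E2F-like sequence had a median of 222.4 against 136.9, and the 27 with TGTGTGTG 173.0 against 137.0. The E2F-like sequence also occurs in the windows of ari-1.4, F53F1.3 and smg-3 shown above, so its median shares members with that of GAGGAGTAC. The 5 members with TGGCCTAG had a median of 253.4 against 137.5. TGGCCTAG too was chosen after the members' sequences had been read, and its members include the pair in Y65A5A.2, so its higher median describes that choice. At least 1 of GAGAGA, the 7-base motif and GAGGAGTAC occurred in 165 members, 60.2%, in 47.1% of other peaks and in 9.70% of eligible windows. The 7-base motif and GAGAGA occurred together in 34 members, and GAGGAGTAC with either of them in 0.

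The longer stretch around GAGGAGTAC in the strongest member, shown here because its copies can be counted across the genome, is 19 bases long.
Y65A5A.2, stretch: tccgagaggagtacacggc
It occurs exactly 16 times in the nuclear genome, on either strand. In eligible introns there are 4 copies, with 2 in Y65A5A.2 and 1 each in F53F1.3 and smg-3, and each had a member within 100 bp. Elsewhere 6 of 12 copies had an IDR summit within 100 bp. With up to 1 mismatch there are 20 copies in eligible introns, of which 7 had a member, and no other copy lay in a region of the pooled list. With up to 3 mismatches there are 313 copies in eligible introns, of which 8 had a member, beside 74 with an IDR summit of 388 copies elsewhere. The stretch was read from the strongest member, after the members' sequences had been read, so none of the 4 exact copies in eligible introns is an independent observation.

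The summit lay downstream of the stretch in all 8 members that carry it with up to 3 mismatches, read along the strand of the stretch. The distance from the centre of the stretch to the summit was 21 and 15 bp in Y65A5A.2, 33 bp in pptr-2, 23 bp in F53F1.3, 25 bp in smg-3, 18 bp in mtrf-1L and 46 bp in lin-45. In ari-1.4, which holds 2 copies of 1 mismatch each, it was 31 and 9 bp. F53F1.3 scored 350.7 in the pooled data, 206.6 in replicate 1 and 145.2 in replicate 2. smg-3, a component of nonsense-mediated decay, scored 175.4 in the pooled data, 114.2 in replicate 1 and 65.1 in replicate 2. An exact copy thus went with pooled scores from 175.4 to 1291.1.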

How the data were processed

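ChIP-seq peak lists of LIR-3-GFP were analysed for 2 biological replicates of L1 larvae, which form 1 group. The score of each region is the authors' deposited signal value, with no unit stated. The −log10 q-values were also deposited by the authors and reach 2.01 at most, so regions were ranked by score. The aligner, the peak caller, the IDR cut-off and read depth were not given in the sources used here. The IDR peaks carry scores of the pooled data. A member's replicate score is that of the strongest region of the replicate's list that holds the summit. Positions were read on ce11 against Ensembl release 115 and RefSeq WBcel235 with Python 3.11.15, pandas 2.3.3 and numpy 2.4.6, and the scripts were tested on simulated data. Regions deposited on ce10 were not used. Shares carry exact Clopper-Pearson 95% intervals (scipy 1.17.1), which cover counting error only. No test was run, because there is 1 group and peaks are not replicates. The members, gene lists and motifs were chosen with earlier results of these data known, and GAGGAGTAC, TGGCCTAG, GAGAGA and the 19-base stretch after the members' sequences had been read. Hosts were named by a rule: those of the 20 strongest members, those with 2 or more members, the 8 strongest at small RNA or miRNA genes, the 3 farthest from 5' ends, the 3 on either side of the limit, and up to 4 per gene list. The alternatives were other distances, 5' ends, exons, summits, thresholds, replicates and window sizes.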

Additional observations from a re-analysis of the deposited data

How the results depend on the processing

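Of 95 alternative values, 58 stayed within 1.5 times a count or within the interval of a share or median, and 37 did not. The cause was not tested unless stated. With fewer peaks by construction, the 947 strongest IDR peaks held 120 members (12.7% of peaks, median score 253.4) and the 500 strongest held 56 (11.2%, median 369.4). The share of nuclear IDR peaks was 11.7% with a limit of 1000 bp, 11.2% with 5' ends of every transcript, 10.1% with 5' ends of all genes but piRNA genes, and 17.1% with exons of protein-coding genes only. Without 1 replicate it ranged from 14.3 to 14.7%. The median score without 1 replicate ranged from 68.5 to 83.1, on the replicates' own scales. The share in both replicates was 87.2% by reciprocal overlap of at least 50% and 62.8% among the strongest regions. The first-intron share was 30.3% on the longest transcript and 56.2% with 5' ends of all genes but piRNA genes. The small RNA share was 0% with those 5' ends, by construction, 24.1% with exons of protein-coding genes only, and 11.5% in windows of unique sequence, an alternative chosen after seeing the data. The inner-start share was 4.01% within 100 bp and 12.8% within 250 bp, by construction. With a limit of 250 bp from 5' ends it was 30.5%. That value also counts summits within 500 bp of outermost 5' ends, so it rose by construction and is no inner-start share. With 50 bp on each side of the summit, shares fell as shorter windows must: GTTCGANTC to 1.46%, CTGCGTC to 6.93%, GAGAGAGA to 8.76%, CACGTG to 10.6%, TGATAA to 8.76%, CCCGCCC to 0.73%, TGTGTGTG to 4.38%, the run of T to 5.11% and GAGAGA to 34.7%. With 150 bp, TGATAA rose to 21.9%, CCCGCCC to 4.74%, the run of T to 19.7% and GAGAGA to 61.7%. Median GC was 44.6% with 50 bp and 41.5% with 150 bp. No paired analysis was possible because there is 1 group and no test. Unknown read depth limits what a missing region shows.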
